A study of Rattus norvegicus with 21 samples.

Results

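The response to phenylephrine (PE) in the presence of added KLF2 was described in NRVMs, neonatal rat ventricular myocytes, which are heart muscle cells taken from newborn rats into primary culture. The comparison rests on 6 RNA sequencing libraries of the 21 samples of the series, 3 labelled AdKlf2 with PE and 3 labelled AdKlf2 without PE, taken by their library names. A further 6 libraries, 3 of AdGFP with PE and 3 of AdGFP without PE, gave the same contrast in control cells. AdKlf2 is an adenovirus carrying Klf2, and AdGFP is a control adenovirus carrying a green fluorescent protein. Per the labels' protocols, cells were kept with or without PE at 100 µM for 12 h and then received the virus for another 24 h. The groups with PE are labelled at 36 h and those without at 0 h, under a tag named batch. Every AdKlf2 culture therefore received the Klf2 virus. The AdKlf2 groups differed in PE and, with it, in this tag, so the 2 cannot be told apart. Words such as raised, lowered and response below therefore name differences between groups labelled with and without PE. Whether the level of KLF2 was the same with and without PE was not tested. Values from siNeg and siKlf2 cells, which received a negative control or a Klf2 small interfering RNA in a separate experiment of 2 libraries a group, are set beside them.

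PE is an agonist of α1-adrenergic receptors, which in cardiomyocytes couple through the G protein Gq to phospholipase C, protein kinase C, calcium and the MAP kinases. Cultured neonatal myocytes answer with hypertrophic growth, that is, larger cells with more contractile protein and a return of genes of the fetal heart. KLF2 is a zinc finger transcription factor of the Krüppel-like family that binds GC-rich and CACCC-type DNA and is best known in blood vessel lining cells, where it is induced by flow.

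The 6 AdKlf2 libraries were deep and close to each other within a group. Total counts were 34361777 to 76138723 with PE and 32693762 to 47016968 without PE. Correlations of log2(CPM + 1) across genes (CPM, counts relative to the scaled library total) were 0.9967 to 0.9981 among the libraries with PE and 0.9954 to 0.9966 among those without, against 0.9307 to 0.9358 between the groups. The biological coefficient of variation within a group was 0.0652 in AdKlf2 with PE, 0.0939 in AdKlf2, 0.084 in AdGFP with PE and 0.315 in AdGFP, so the AdGFP libraries without PE stood apart by their spread. The gap was smaller for genes of at least 10 CPM, whose median SD on the log2 scale was 0.110 in AdGFP. In the other groups it was 0.0598 to 0.0815. The AdGFP libraries without PE enter the AdKlf2 comparison through the filter, the scaling factors and the spread, which are set on all 12 libraries of the table, and every value of AdGFP without PE and of the difference between arms rests on them directly. Genes are listed by Ensembl ID, and 0 of 30560 IDs could be paired with a symbol here, so Klf2 itself, cardiomyocyte markers and markers of other cell types were not analysed here. No label tells if the 3 replicates of a group are separate preparations, and the spread that p-values are set against is that between libraries and may be technical.

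The transcriptome of AdKlf2 cells with PE differed widely, in both directions, from that without PE. Of 16153 genes tested, 9895 were called at an adjusted p under 0.05 in edgeR's quasi-likelihood test, or 61.3%, with 5112 higher (31.6%) and 4783 lower (29.6%). With a fold of at least 1.5, the call used from here on unless stated, 6441 genes passed (39.9%), of which 3505 rose (21.7%) and 2936 fell (18.2%). Rises of at least 4-fold numbered 1079 (6.68%) and falls of that size 470 (2.91%), and at 16-fold or more there were 201 rises and 72 falls. The levels of the 3 libraries with PE lay above all 3 without PE for 5949 genes (36.8%) and below them for 5630 (34.9%). The median gene moved by 1.52-fold in either direction. RNA came from whole cultures, in which fewer cells of a type and less RNA per cell cannot be told apart. When libraries were scaled by their totals only, the median log2 fold change of all genes was -0.21, against -0.01 with TMM factors, and rises made up 39.2% of the genes called at an adjusted p under 0.05, against 51.7%.

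**Figure D1:**
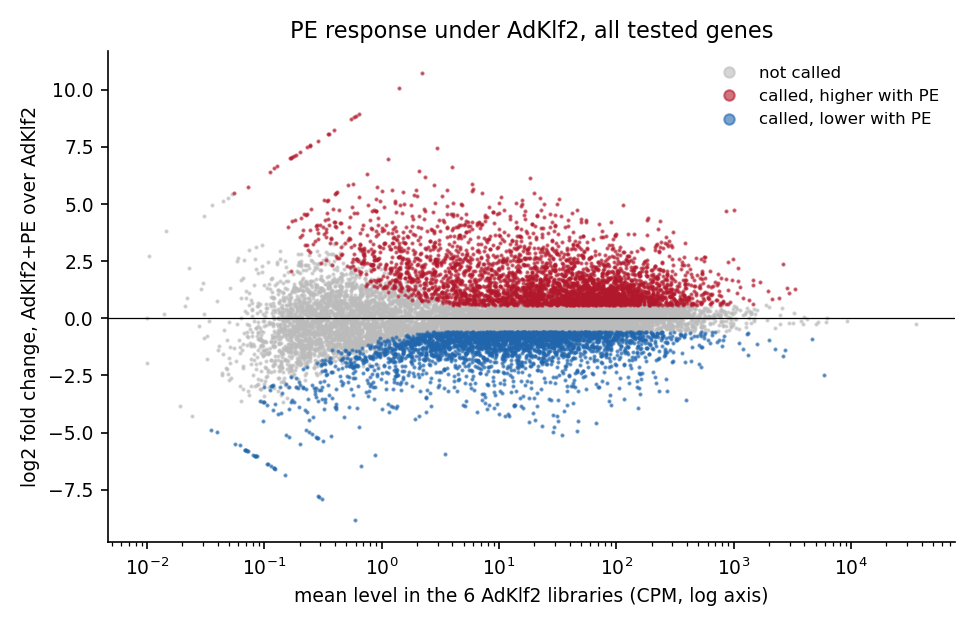
Log2 fold change of AdKlf2 with PE over AdKlf2 without PE for each of 16153 tested genes, against the mean level over the 6 libraries in CPM on a log axis. Red points (3505 genes) were called higher and blue points (2936) lower with a fold of at least 1.5, and called genes are found at every level above about 1 CPM.

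Both IDs with the largest rises among genes averaging 5 CPM or more over the 6 AdKlf2 libraries were close to silent without PE. The choice favours this, since an ID can pass that mean through the libraries with PE alone and ranking is by fold. All IDs named here were chosen by this contrast, so their values in AdKlf2 are descriptions. ENSRNOG00000062731 had 35.3, 36.9 and 36.1 CPM in the 3 AdKlf2 libraries with PE, against 0.613, 0.444 and 0.463 CPM in the 3 without PE. The groups did not overlap, which was a condition for naming an ID. The rise was 6.13 on the log2 scale (SE 0.331, edgeR adjusted p = 9.98e-12), or 70.2-fold. In AdGFP cells the same ID had 1.36, 1.66 and 1.77 CPM with PE, against 0, 0.337 and 0.101 CPM without PE. It thus rose in both arms, by 3.37 on the log2 scale in AdGFP (SE 0.423, edgeR adjusted p = 4.97e-06). That value was 2.80 without AdGFP replicate 1 and 4.89 without AdGFP replicate 2, since the AdGFP libraries without PE held only 0, 22 and 6 counts. Its level with PE was 36.1 ± 0.812 CPM in AdKlf2 and 1.60 ± 0.215 CPM in AdGFP (SD, n = 3 each). The difference between the 2 PE responses was 2.77 on the log2 scale (SE 0.636, edgeR adjusted p = 0.00129), and it was 1.23 without AdGFP replicate 2 (edgeR adjusted p = 0.223), so that call rests on 1 library of the group that stood apart. In siNeg cells the ID lay at 0.785 ± 0.154 CPM with PE and 0.415 ± 0.0597 CPM without PE (SD, n = 2 each).

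ENSRNOG00000016625 had 12.1, 11.8 and 10.7 CPM in AdKlf2 with PE, from 836, 377 and 620 counts. Without PE the AdKlf2 libraries held 14, 7 and 4 counts, or 0.286, 0.155 and 0.116 CPM, and the rise was 5.89 on the log2 scale (SE 0.399, edgeR adjusted p = 1.23e-09). Outside AdKlf2 cells the ID was at or near 0 in every library. AdGFP cells had 0, 0 and 2 counts with PE and 0 in all 3 libraries without PE, and no library of the knockdown table had more than 7 counts. With both AdGFP groups at or near 0, no PE response is given for AdGFP, and the difference between arms was not called (edgeR adjusted p = 0.816).

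Of the genes averaging 5 CPM or more, a limit that keeps to genes with a clear level without PE, both IDs with the largest falls came to under 3 CPM in AdKlf2 with PE. ENSRNOG00000003537 had 2.00, 2.54 and 1.57 CPM in AdKlf2 with PE, against 65.0, 70.1 and 67.8 CPM in AdKlf2 without PE. That these groups do not overlap was a condition for naming the ID. Its change was -5.10 on the log2 scale (SE 0.124, edgeR adjusted p = 2.25e-16). AdGFP cells had 26.0, 29.0 and 29.9 CPM with PE, against 80.6, 93.8 and 83.3 CPM without PE, a change of -1.60 on the log2 scale (SE 0.0965, edgeR adjusted p = 3.71e-10). This gene was thus lower with PE in both arms, and the fall was deeper in AdKlf2, by a log2 difference of -3.49 (SE 0.155, edgeR adjusted p = 1.67e-12). In siNeg cells it lay at 65.8 ± 9.43 CPM with PE and 128 ± 2.16 CPM without PE (SD, n = 2 each).

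ENSRNOG00000064933 had 1.92, 1.38 and 1.86 CPM in AdKlf2 with PE, against 59.9, 54.7 and 52.2 CPM in AdKlf2 without PE. This was a log2 change of -4.97 (SE 0.105, edgeR adjusted p = 3.63e-17). In AdGFP cells the levels were 59.5, 64.3 and 68.8 CPM with PE, against 109, 113 and 110 CPM without PE, a change of -0.78 on the log2 scale (SE 0.0773, edgeR adjusted p = 2.55e-07). The 2 PE responses differed by -4.19 on the log2 scale (SE 0.131, edgeR adjusted p = 1.88e-14). AdKlf2 without PE and AdGFP with PE had close levels of this gene, 55.6 ± 3.92 and 64.2 ± 4.64 CPM (SD, n = 3 each), far above AdKlf2 with PE at 1.72 ± 0.295 CPM (SD, n = 3).

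**Figure D2:**
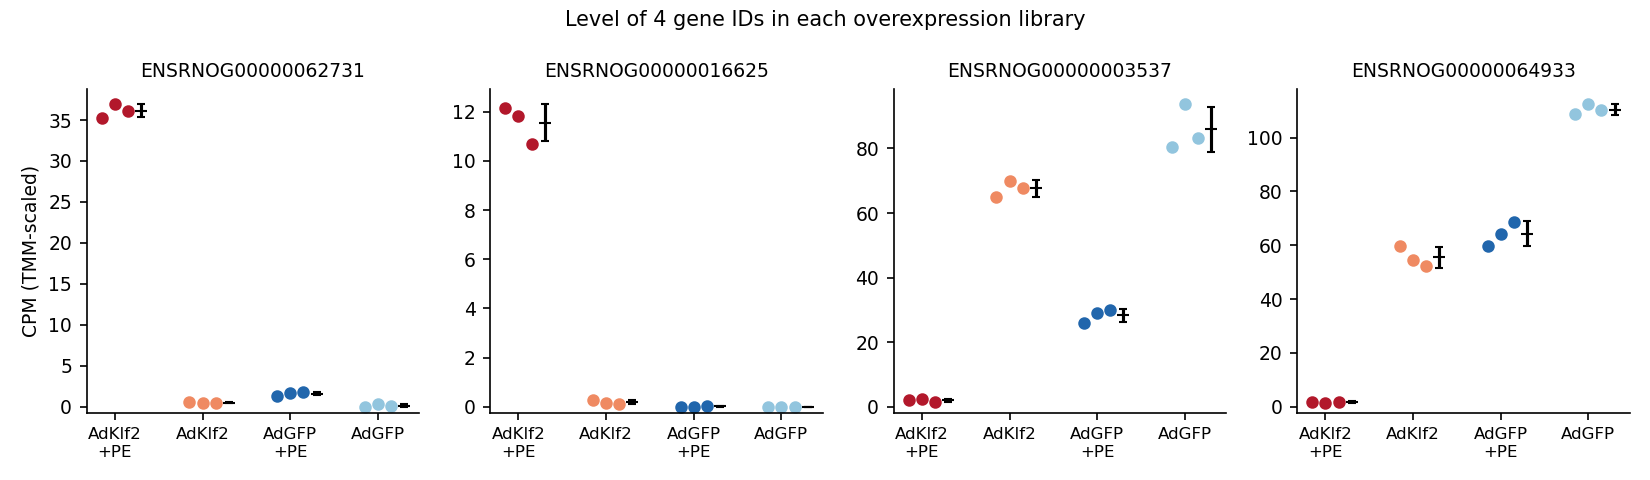
Level in CPM of the 4 IDs in each library of the overexpression table, with bars for the mean and SD of 3 libraries. In each panel the 3 AdKlf2 libraries with PE lie apart from the other 9, above them for both rises (36.1 and 11.5 CPM on average) and below them for both falls (2.04 and 1.72 CPM). The naming rule required this separation from the 3 AdKlf2 libraries without PE.

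Few genes that are abundant in control cells rose strongly. By the level in siNeg cells without PE, 1 of 1769 tested genes of 100 to 1000 CPM and 0 of 57 genes of 1000 CPM or more rose by a fold of at least 4, while 61 and 3 fell by that much, against 6.68% and 2.91% over all tested genes. Some genes came to high levels through the rise itself, and they are given here as a description, since their level with PE chose them. Among genes that rose by a fold of at least 4, 184 lay at 100 CPM or above in all 3 AdKlf2 libraries with PE. The median over these genes was 221 CPM in AdKlf2 with PE and 38.2 CPM in AdKlf2, against 21.6 CPM in AdGFP with PE and 19.6 CPM in AdGFP. Of these, 6 reached 1000 CPM in all 3 AdKlf2 libraries with PE, and they are described here without their IDs, chosen after their values were seen. Without symbols, whether Klf2, which the virus carries, is among these 6 was not tested. The highest lay at 4418 ± 321 CPM in AdKlf2 with PE and 841 ± 49.9 CPM in AdKlf2 (SD, n = 3 each), against 15.3 CPM in AdGFP with PE and 24.2 CPM in AdGFP. Another lay at 1942 ± 80.5 CPM in AdKlf2 with PE and 71.8 ± 12.1 CPM in AdKlf2 (SD, n = 3 each), against 1.18 and 2.60 CPM in AdGFP with and without PE. A further 3 lay at 1507 to 1798 CPM in AdKlf2 with PE and 272 to 386 CPM in AdKlf2, against 17.7 to 94.9 CPM in AdGFP with PE and 28.0 to 93.3 CPM in AdGFP. A single one of the 6 also rose in AdGFP, where it reached 3708 CPM with PE and 95 CPM without, against 1648 ± 101 CPM in AdKlf2 with PE and 64.2 ± 2.99 CPM in AdKlf2 (SD, n = 3 each). Its PE response was smaller in AdKlf2 than in AdGFP, with a difference of -0.61 on the log2 scale (edgeR adjusted p = 5.99e-05).

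In the other direction, 47 genes with at least 100 CPM in each AdKlf2 library without PE fell by a fold of at least 4. Their median level was 34.5 CPM in AdKlf2 with PE and 215 CPM in AdKlf2, against 294 CPM in AdGFP with PE and 310 CPM in AdGFP. One of them had over 1000 CPM, with 1816 ± 46.7 CPM in AdKlf2 with PE and 10056 ± 596 CPM in AdKlf2 (SD, n = 3 each), a change of -2.47 on the log2 scale (SE 0.057, edgeR adjusted p = 1.08e-16). This gene lay at 9785 CPM in AdGFP with PE and 11502 CPM in AdGFP, and its PE response differed between arms by -2.24 on the log2 scale (edgeR adjusted p = 7.5e-14). In siNeg cells its log2 fold change with PE was 0.02.

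The share of the RNA pool held by these genes is given next. The 3505 raised genes held 36.9%, 36.3% and 36.9% of all counts in the AdKlf2 libraries with PE, against 16.8%, 16.9% and 17.6% without PE. The 2936 lowered genes held 7.49%, 7.42% and 7.60% with PE, against 19.5%, 19.0% and 19.2% without PE. These shares describe genes chosen by the same contrast and support nothing beyond it. In measures that used no call, the 10 most abundant genes of each library held 7.36% ± 0.272 of counts with PE and 10.2% ± 1.06 without PE in AdKlf2 (SD, n = 3 each). The libraries did not overlap, and an exact permutation test, two-sided, gave p = 0.1, the smallest that 3 against 3 allow. In AdGFP the same share was 11% ± 0.488 with PE and 11.7% ± 0.0668 without PE (SD, n = 3 each; exact permutation p = 0.1). The number of genes that together hold 50% of counts overlapped between the AdKlf2 groups, with 815 to 820 with PE and 772 to 820 without PE (exact permutation p = 0.4), and in AdGFP it was 621 to 650 with PE and 757 to 758 without PE (exact permutation p = 0.1). The number of genes with at least 1 CPM was 13180 to 13203 with PE and 12995 to 13021 without PE in AdKlf2 (exact permutation p = 0.1), whereas in AdGFP it was 12600 to 12612 with PE and 12792 to 12872 without PE (exact permutation p = 0.1). These numbers depend on the TMM factors, which were 0.904 to 0.929 with PE and 1.04 to 1.06 without PE in AdKlf2. In AdGFP they were 0.967 to 0.982 with PE and 1.07 to 1.08 without PE. The numbers under library totals were not tested.

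Whether the response depended on how strongly a gene is expressed was examined with levels from siNeg cells without PE, which share no library with this comparison. Among 57 genes with 1000 CPM or more in siNeg cells, 0 rose and 15 fell with PE in AdKlf2, while 11 rose and 3 fell in AdGFP. Over all tested genes 21.7% rose and 18.2% fell in AdKlf2, and 6.35% rose and 7.6% fell in AdGFP. With scaling by library totals the counts for the 57 genes were 0 higher and 22 lower in AdKlf2, and 6 higher and 3 lower in AdGFP. The response of 20 was called lower than in AdGFP and that of 0 higher, against 15.9% lower and 19.2% higher over all tested genes. These 57 genes held 12.6% to 13.1% of counts in AdKlf2 with PE and 17.1% to 19.3% in AdKlf2, against 20.5% to 21.4% in AdGFP with PE and 20.7% to 20.8% in AdGFP. Among 1769 genes of 100 to 1000 CPM, 246 rose and 379 fell in AdKlf2, and 141 rose and 82 fell in AdGFP. With scaling by library totals the AdGFP split turned to 97 higher and 134 lower, while in AdKlf2 it kept its direction, with 152 higher and 527 lower. Among 3792 genes of 1 to 10 CPM, rises and falls were near equal in number in AdKlf2, with 945 and 916, against 257 and 538 in AdGFP. With library totals the AdKlf2 split was 816 higher and 1200 lower.

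**Figure D3:**
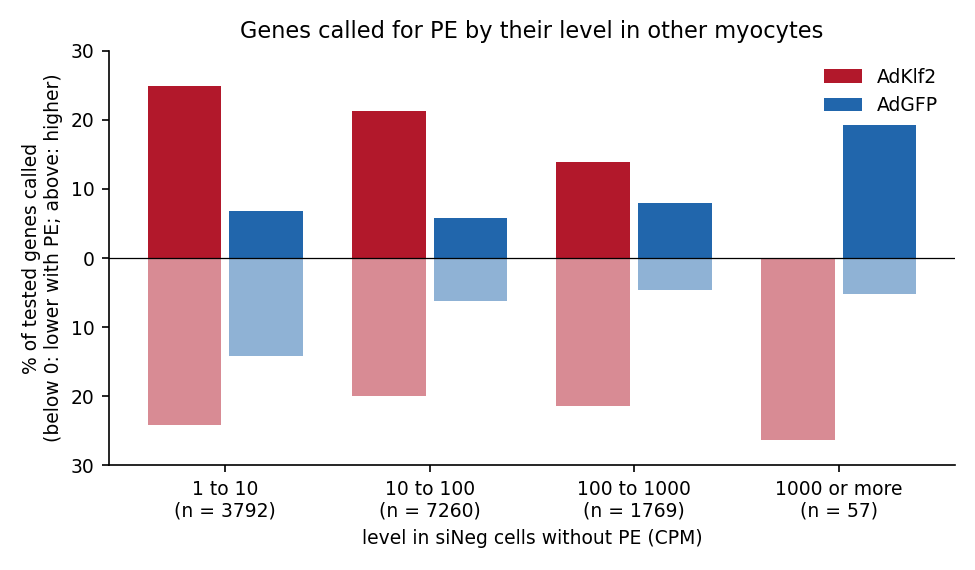
Percent of tested genes called for PE with a fold of at least 1.5, grouped by their level in siNeg cells without PE, with rises drawn above 0 and falls below it, for AdKlf2 (red) and AdGFP (blue). In the group of 1000 CPM or more, 0% rose and 26.3% fell in AdKlf2, and 19.3% rose and 5.26% fell in AdGFP.

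More IDs with little or no signal in control cells reached 1 CPM with PE than without it in AdKlf2. Of 14149 IDs under 0.1 CPM in siNeg cells without PE, 177 reached 1 CPM in all 3 AdKlf2 libraries with PE and 35 in all 3 without PE. The same count was 1 in AdGFP with PE and 1 in AdGFP. Among 3524 IDs of 0.1 to 1 CPM in siNeg cells, 655 reached 1 CPM in all 3 AdKlf2 libraries with PE and 317 in all 3 without, against 102 in AdGFP with PE and 81 in AdGFP. These counts take every ID of the file and no filter on low counts. They use TMM-scaled totals, and their dependence on that scaling was not tested. A stricter pattern, under 0.5 CPM in each AdKlf2 library without PE and at least 1 CPM in each with PE, was met by 155 IDs (0.507% of 30560), with a median level of 2.34 CPM and a highest level of 14.0 CPM. Of these, 141 stayed under 1 CPM in all 6 AdGFP libraries and 151 in all 8 libraries of the knockdown table. The reverse pattern was met by 43 IDs (0.141%). In AdGFP the same patterns were met by 12 IDs (0.0393%) and 8 IDs (0.0262%). Only 4 IDs had 0 counts in all 3 AdKlf2 libraries without PE and at least 1 CPM in each with PE, with levels of 1.21 to 4.43 CPM.

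The response of AdKlf2 cells was then set against that of AdGFP cells, which share no library with it. The genes are grouped by these calls themselves, so their counts and levels in the 2 arms are descriptions. In AdGFP, PE raised 1026 genes (6.35%) and lowered 1228 (7.6%) with a fold of at least 1.5. The difference between the 2 responses, tested in the same edgeR fit, was called at an adjusted p under 0.05 for 49.1% of genes, and for 5671 genes with a fold of at least 1.5 (35.1%), with 3106 higher and 2565 lower in AdKlf2. Across 16153 genes the 2 sets of log2 fold changes had a Spearman correlation of 0.17, and genes are not independent replicates. The AdKlf2 response had a correlation of 0.17 with that of siNeg cells over 15944 genes, whereas the AdGFP and siNeg responses had one of 0.63. The quartiles of the log2 fold change were -0.57 and 0.64 in AdKlf2 and -0.34 and 0.26 in AdGFP.

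**Figure D4:**
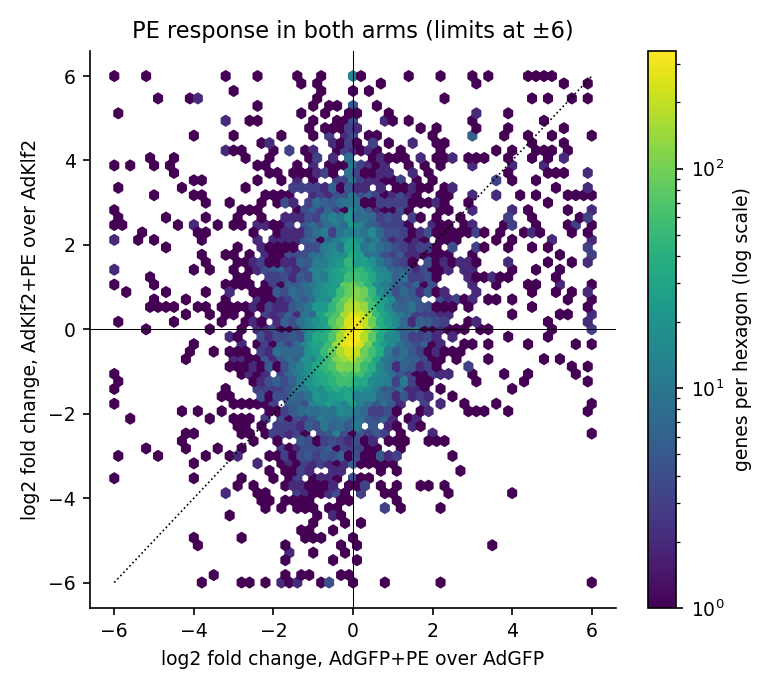
Log2 fold change with PE in AdKlf2 (vertical) against that in AdGFP (horizontal), with genes counted in hexagons on a log colour scale and values beyond 6 drawn at 6. The cloud is tall rather than tilted along the dotted line of equal response, with a Spearman correlation of 0.17.

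Genes called in AdKlf2 were sorted by their call in AdGFP, where 14% of all tested genes were called. Of the 3505 rises, 2799 (79.9%) were not called in AdGFP, and for 2143 of these the difference between arms was called at this fold. The median levels of the 2799 were 48.6 CPM in AdKlf2 with PE and 18.3 CPM in AdKlf2, against 14.9 CPM in AdGFP with PE and 14.7 CPM in AdGFP. Of the 2936 falls, 2236 (76.2%) were not called in AdGFP, and the difference was called for 1495. Over all tested genes the difference was called higher for 19.2% and lower for 15.9%. The choice partly builds in a called difference, since it uses the same libraries. The median levels of the 2236 were 8.35 CPM in AdKlf2 with PE and 17.4 CPM in AdKlf2, against 17.5 CPM in AdGFP with PE and 19.4 CPM in AdGFP.

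Some genes were called in the same direction in both arms. In both arms PE raised 410 genes, which are 11.7% of the AdKlf2 rises and 40% of the AdGFP rises, and lowered 533, which are 18.2% of the AdKlf2 falls and 43.4% of the AdGFP falls. Over all tested genes, 6.35% rose and 7.6% fell in AdGFP, and 21.7% rose and 18.2% fell in AdKlf2. In siNeg cells, where PE raised 5.91% and lowered 7.97% of 18173 tested genes with this fold, 211 of the 410 rose and 1 fell, and of the 533, 334 fell and 2 rose. Within the shared rises the response was called larger in AdKlf2 for 123 genes and smaller for 38. Within the shared falls it was called deeper in AdKlf2 for 157 genes and shallower for 13. Over all tested genes the difference between arms was called higher for 19.2% and lower for 15.9%. A call in AdKlf2 was a condition here, which favours larger responses in AdKlf2. In lists chosen by siNeg cells, given below, the difference was called lower more often than higher for genes raised there. For genes lowered there the lists differed.

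Other genes were called in opposite directions, at shares near those over all tested genes. PE raised 296 genes in AdKlf2 that it lowered in AdGFP, which are 8.45% of the AdKlf2 rises, against 7.6% of all tested genes lowered in AdGFP. Their median log2 fold changes were 1.67 in AdKlf2 and -0.99 in AdGFP, and their median levels were 28.2 CPM in AdKlf2 with PE and 7.93 CPM in AdKlf2, against 2.74 CPM in AdGFP with PE and 5.24 CPM in AdGFP. In siNeg cells, an independent set of libraries, 124 of the 296 fell with PE and 2 rose. PE lowered 167 genes in AdKlf2 that it raised in AdGFP, which are 5.69% of the AdKlf2 falls, against 6.35% of all tested genes raised in AdGFP. Their median levels were 10.1 CPM in AdKlf2 with PE and 23.2 CPM in AdKlf2, against 53.2 CPM in AdGFP with PE and 26.6 CPM in AdGFP. Of these, 96 rose and 0 fell in siNeg cells. The difference between arms was called for all 296 and all 167, which the choice builds in, since both calls use the same libraries as the difference.

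Genes that respond to PE in control cells were followed as lists taken from siNeg cells, in steps of the fold reached there. Of 78 genes raised by a fold of 4 or more in siNeg, 57 passed the filter on low counts here, and the counts that follow describe those that passed. In AdKlf2 25 of the 57 rose and 6 fell with PE, and in AdGFP 36 rose and 0 fell, against 21.2% higher and 18.4% lower in AdKlf2, and 6.38% higher and 7.69% lower in AdGFP, over all genes tested in both tables. The list's own shares were 43.9% higher and 10.5% lower in AdKlf2. Their median log2 fold change was 1.33 in AdKlf2 and 2.15 in AdGFP. The difference between arms was called lower for 28 (49.1%) and higher for 2 (3.51%), against 16.1% and 19.3% over all genes tested in both tables. The median level of the list was 1.5 to 2.15 CPM in AdKlf2 with PE and 0.55 to 0.715 CPM in AdKlf2, against 1.69 to 1.98 CPM in AdGFP with PE and 0.371 to 0.589 CPM in AdGFP. The median levels of the list in the 2 arms thus overlapped both with PE and without it. In the list raised by a fold of 2 to 4, described next, they overlapped in neither state. With PE that list lay at 4.22 to 4.70 CPM in AdKlf2 and 5.45 to 5.93 CPM in AdGFP. Without PE it lay at 3.05 to 3.62 CPM in AdKlf2 and 2.18 to 2.96 CPM in AdGFP.

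Among 304 tested of 358 genes raised by a fold of 2 to 4 in siNeg, 111 rose (36.5%) and 47 fell (15.5%) in AdKlf2, and 191 rose and 1 fell in AdGFP, with medians of 0.56 and 1.28. Among 623 tested of 638 genes raised by a fold of 1.5 to 2, 174 rose (27.9%) and 102 fell (16.4%) in AdKlf2, and 304 rose and 4 fell in AdGFP, with medians of 0.16 and 0.69. The AdKlf2 shares over all genes tested in both tables were 21.2% higher and 18.4% lower. In both of these lists the share that rose lay above the all-gene share, and the share that fell lay somewhat below it. With library totals the AdKlf2 median of this last list turned to -0.04, with 144 higher and 136 lower. The difference between arms was called lower for 121 (39.8%) and higher for 32 (10.5%) in the list of 2 to 4. In the list of 1.5 to 2 it was called lower for 239 (38.4%) and higher for 90 (14.4%). The spread over genes was wide in AdKlf2. The quartiles of the list of 2 to 4 were -0.50 and 1.42 in AdKlf2 and 0.77 and 1.81 in AdGFP.

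Genes lowered by PE in siNeg cells had negative medians in both arms. In AdKlf2 18.4% of all genes tested in both tables were lower and 21.2% higher, and in AdGFP 7.69% were lower and 6.38% higher. Of 39 tested of 77 genes lowered by a fold of 4 or more, 25 fell (64.1%) and 3 rose (7.69%) in AdKlf2, and 30 fell and 0 rose in AdGFP, with medians of -2.34 and -2.10. Of 413 tested of 474 genes lowered by a fold of 2 to 4, 186 fell (45.0%) and 72 rose (17.4%) in AdKlf2, and 232 fell and 1 rose in AdGFP, with medians of -1.04 and -1.11. Of 888 tested of 898 genes lowered by a fold of 1.5 to 2, 335 fell (37.7%) and 162 rose (18.2%) in AdKlf2, and 373 fell and 2 rose in AdGFP, with medians of -0.54 and -0.67. The shares that rose in AdKlf2 were thus at or below that over all genes. Falls outnumbered rises in each of these lists under all 3 scalings tried.

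**Figure D5:**
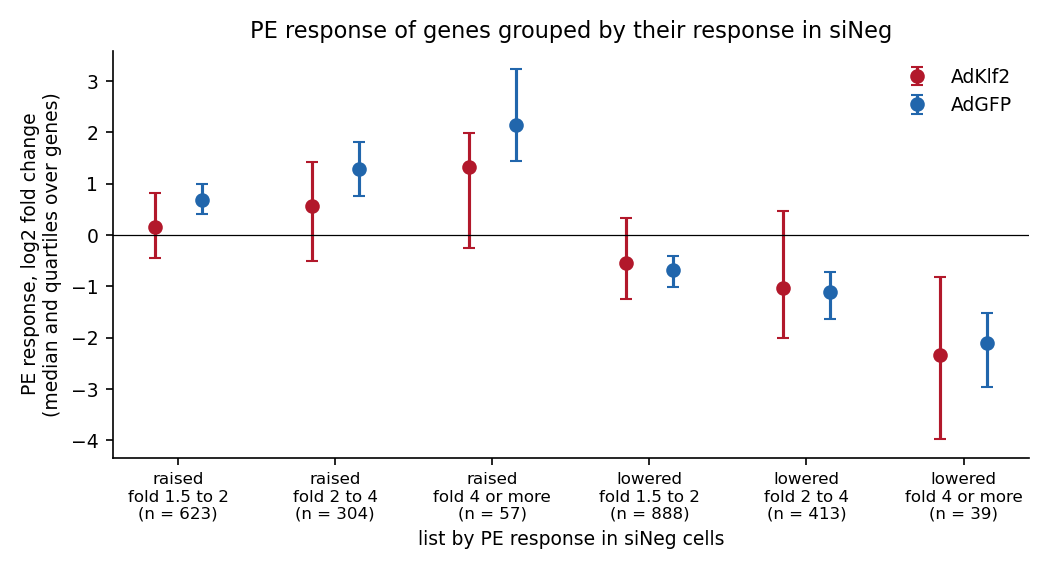
Median PE response with quartiles over genes, on the log2 scale, in AdKlf2 (red) and AdGFP (blue), for genes grouped by the direction and fold of their PE response in siNeg cells. For raised genes the AdKlf2 medians of 0.16, 0.56 and 1.33 lie under the AdGFP medians of 0.69, 1.28 and 2.15, and for lowered genes the medians of both arms lie close together.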

How the data were processed

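The authors' overexpression and knockdown tables were used as deposited, with whole-number counts for 30560 Ensembl gene IDs in each library, whose totals differ between libraries. Per the submitters' processing notes, Trim Galore, STAR, featureCounts and the build mRatBN7.2 were used, with no versions. Among counts of 1 to 20, 72.1% to 77.9% were even in the 6 AdKlf2 libraries, so a count may often be 1 mate of a fragment counted with both. The KLF2 peak list was not used here.

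Genes passed filterByExpr (minimum count 10, minimum total 15). After TMM scaling, the 4 groups of a table were fitted together by quasi-likelihood in edgeR 4.0.16 (R 4.3.3), with a coefficient per group. Two-sided p-values received the Benjamini-Hochberg adjustment over all tested genes. CPM are counts divided by the scaled library total. SE is the size of the log2 fold change divided by the root of the F statistic. The procedure was tested on simulated counts in which far fewer genes changed than were called here, equally in both directions. That test therefore does not cover scaling or false calls under a change this wide.

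The comparison and lists were chosen with earlier results of these data known. Lists by gene symbol, the markers and the share of genes near KLF2 peaks could not be used, because no ID matched a symbol. The fallback rule named the 2 largest rises and 2 largest falls among called genes that moved by 1.5-fold or more, averaged 5 CPM or more and had groups that do not overlap.

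Alternatives were RLE factors, library totals, no filter, DESeq2 1.42.0, a replicate block, only the 2 compared groups, counts halved, a fold of 2 and leaving out each library. Levels were summarised in Python 3.11.15 (pandas 2.3.3, numpy 2.4.6, scipy 1.17.1).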

Additional observations from a re-analysis of the deposited data

Results flagged for a closer look

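The PE response differed between AdKlf2 and AdGFP cells by a test of the difference itself, at an adjusted p under 0.05 in edgeR's quasi-likelihood test, for 7926 genes with no minimum fold. Among the 4 IDs followed, this difference was 2.77 on the log2 scale for ENSRNOG00000062731, -3.49 for ENSRNOG00000003537 and -4.19 for ENSRNOG00000064933. For both falls, the 3 AdKlf2 libraries with PE lay below all 9 other libraries of the table. The naming rule required this for the 3 AdKlf2 libraries without PE. No group had enough libraries for a search for single libraries far from the others.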

How the results depend on the processing

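With a minimum fold of 2 in place of 1.5, 4010 genes were called for PE in AdKlf2, 3510 for the difference between arms, 1066 in AdGFP and 987 in siNeg. With library totals in place of TMM factors, the called genes that were higher made up 39.2% in AdKlf2, 30.1% in AdGFP and 33.2% in siNeg. Counts of calls with a fold of at least 1.5 stayed within 1.5 times under every other alternative. Leaving out 1 library at a time gave 6123 to 6314 such calls in AdKlf2, 5474 to 5950 for the difference, 2073 to 2510 in AdGFP and 2209 to 2525 in siNeg, where a group was left with 1 library that was taken to vary like the others. With only the 6 AdKlf2 libraries in the fit, 6959 genes were called, of which 6271 were shared in the same direction. Under all 13 alternatives at this fold, 5037 genes were called in the same direction (2639 higher, 2398 lower). A replicate block gave 6362 calls in AdKlf2 and changed no call of the 4 IDs. Same-numbered libraries shared only a number, with correlations of their deviations of -0.0203 to 0.0446 in the overexpression table. The 4 IDs kept direction and call in AdKlf2 under every alternative. The difference for ENSRNOG00000062731 was 1.23 and lost without AdGFP replicate 2. In the list lowered by 4 or more in siNeg, 5 rather than 3 genes rose with only the 6 AdKlf2 libraries. The AdGFP response of ENSRNOG00000016625, not called in any fit, was 0 to 3.57 on the log2 scale with a library left out, with 0 without replicate 3 of AdGFP with PE, which held its only counts there. Lists by symbol and peak distances could not be run.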

Other observations

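Genes that differ after knockdown, taken from the other table, were also followed through the PE response of AdKlf2 cells. Of 1185 genes higher in siKlf2 than in siNeg, both with PE, 1076 were tested here. In AdKlf2, 250 of them rose and 247 fell with PE, or 214 and 317 with library totals in place of TMM factors, and in AdGFP 273 rose and 57 fell. The difference between arms was called lower in AdKlf2 for 343 (31.9%) and higher for 175 (16.3%). Over all genes tested in both tables it was called lower for 16.1% and higher for 19.3%. Their median level was 18.1 to 18.6 CPM in AdKlf2 with PE and 17.9 to 18.4 CPM in AdKlf2, against 20.7 to 21.0 CPM in AdGFP with PE and 16.3 to 17.1 CPM in AdGFP. Of 1884 tested genes lower in siKlf2 than in siNeg, both with PE, 434 rose (23.0%) and 475 fell (25.2%) in AdKlf2, or 378 and 584 with library totals, and 114 rose and 337 fell in AdGFP. The difference between arms was called higher in AdKlf2 for 419 (22.2%) and lower for 259 (13.7%), which is near the all-gene shares of 19.3% and 16.1%. The AdKlf2 shares of the first list were 23.2% higher and 23.0% lower, against 21.2% and 18.4% of all genes tested in both tables. The all-gene shares in AdGFP were 6.38% higher and 7.69% lower.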
